A study of Mus musculus with 12 samples.

Results

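Mature hepatocytes taken from the livers of adult mice were compared, gene by gene, with hepatoblasts taken from E14.5 embryos, to describe which transcripts change while the liver parenchyma matures in the animal. Every gene with more than 10 counts in at least 1 of the 8 libraries was included, and 17093 of the 53715 genes of the count table met that rule. Both groups were C57BL/6JOlaHsd mice with no transgene, deletion or drug named, and each held 4 libraries. Hepatoblasts were Dlk1+ cells collected on magnetic beads from livers pooled over embryos of that age. Mature hepatocytes came from male mice aged 8 to 12 weeks, were freed by collagenase perfusion, and were lysed without culture. The sex of the embryos is not given in the sources used here, so age, sex and method of isolation cannot be told apart in this comparison. Another group of the study, hepatoblasts differentiated in culture, entered the model fit so that all 12 libraries shared an estimate of the spread, and is not described.

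Hepatoblasts are the fetal progenitors that give rise to hepatocytes and to bile duct cells, and at mid-gestation they divide inside an organ that is also the main site of blood formation. Hepatocytes of the adult rarely divide. They make most plasma proteins and bile acids, clear drugs and ammonia, and store and release glucose, and they share these tasks along the axis from the portal to the central vein.

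Library totals were 20043218 to 25216977 counts on genes. The scaling factors of the trimmed mean of M values (TMM) were 1.23 to 1.44 in hepatoblasts and 0.677 to 0.778 in mature hepatocytes, and the choice of scaling moves all changes together: the median log2 fold change of all genes was -0.15 with TMM and -0.998 with library totals. Levels below are CPM, the usual per-library scaling of counts, here with TMM factors applied, with the SD over 4 libraries where a mean is given. A change is the log2 fold change of mature hepatocytes over hepatoblasts, with its standard error, from edgeR's quasi-likelihood test. Genes with an adjusted p (Benjamini-Hochberg) below 0.01 that also changed by more than 1 on the log2 scale in either direction are referred to as called. All 9 hepatocyte markers tested were called higher in the libraries labelled mature (2 with library totals), and Dlk1, used to collect the hepatoblasts, had 2461 to 4199 CPM in hepatoblasts and 3.17 to 6.42 CPM in mature hepatocytes. Hepatoblast replicate 1 stood apart from the other hepatoblast libraries in markers of blood cells. The 14 erythroid markers summed to 3366, 690.0, 555 and 408 CPM in hepatoblast replicates 1 to 4, and the 12 lymphoid and myeloid markers to 441, 52.7, 33.9 and 33.6 CPM. Results on some genes of these cells are therefore also given without that library. In bulk RNA, fewer cells of a type and less RNA per cell cannot be told apart.

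The adult cells differed from the fetal ones across much of the transcriptome. In all 7890 genes were called, 46.2% of those tested, with 3548 higher in mature hepatocytes (20.8%) and 4342 lower (25.4%). With library totals in place of TMM the split moved to 1996 higher and 7806 lower, and no gene was called in opposite directions by the scalings. The 4 libraries of a group did not overlap those of the other group for 11590 genes (67.8%). The genes that fell outnumbered those that rose, but most of the most abundant genes rose. Of the 105 genes with a mean above 1000 CPM over the 8 libraries, 84 were called higher and 5 lower, whereas of the 4147 genes under 1 CPM, 511 were called higher and 1373 lower. These counts by level use TMM and were not taken with library totals. Genes called higher took 23.8, 25.1, 27.5 and 28.6% of all counts in the 4 hepatoblast libraries and 72.8, 70.5, 70.7 and 72.4% in the 4 mature libraries. Genes called lower went from 27.5 to 28.6% of counts in hepatoblasts to 2.57 to 2.998% in mature hepatocytes. The classes were defined by this same comparison, so the direction of these shares was set in advance. Genes called higher included CT010467.1 (11701.5 ± 3451 to 62334 ± 32197 CPM), Mir6236 (2636 to 11283 CPM) and Gm23935 (1099 to 4845 CPM). These entries were among the most abundant per kilobase in both groups, and what they represent was not tested. Changes were often large, with a log2 fold change over 5 in 542 of the risen genes and below -5 in 886 of the fallen ones.

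**Figure D1:**
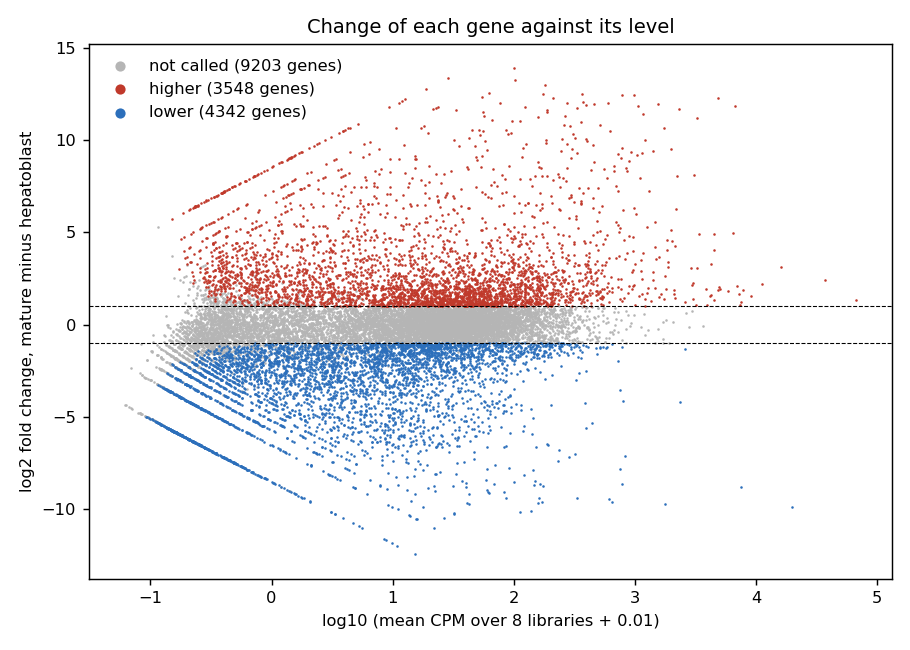
Each point is 1 of the 17093 genes, with the mean level over the 8 libraries on the x axis (log10 of CPM plus 0.01) and the log2 fold change of mature hepatocytes over hepatoblasts on the y axis. Red marks the 3548 genes called higher and blue the 4342 called lower, and the right of the plot, above 1000 CPM, is mostly red (84 of 105 genes). With library totals in place of TMM the whole cloud lies lower and 1996 genes are called higher against 7806 lower.

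Among genes with a mean of at least 10 CPM, the largest increases were in enzymes and secreted proteins of the adult male liver. Of the 15 largest, 7 encode cytochromes P450 (Cyp2c54, Cyp4a12a, Cyp2f2, Cyp2c29, Cyp4a12b, Cyp4a10 and Cyp2c38) and 4 encode major urinary proteins (Mup21, Mup18, Mup17 and Mup3), with Elovl3, Ido2, Cib3 and Ces3b making up the rest. Cyp2c54 had 1, 0, 0 and 0 counts in the hepatoblast libraries and 239.8, 131, 145 and 292 CPM in the mature libraries, and was at least 2115-fold higher in mature hepatocytes. Elovl3, which elongates very long saturated fatty acids, had 0, 3, 1 and 1 counts in hepatoblasts and 692, 77.7, 537 and 141 CPM in mature hepatocytes, at least 3789-fold higher. Both were at or under 3 counts in every hepatoblast library, the level below which a fold change can only be given as a lower bound. The bound sets the mean CPM of the higher group against 3 counts in the other, so a single library can lie under it. Ido2, a tryptophan-degrading dioxygenase, was at least 1312-fold higher (128, 126, 138 and 109 CPM in mature hepatocytes). The carboxylesterase Ces3b went from 0.166 ± 0.0618 to 742 ± 191 CPM, a log2 fold change of 12.07 ± 0.29 (adjusted p = 2.08e-12).

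The 15 largest decreases included fetal regulators, genes of blood cells and genes of neither kind. Lin28b and Igf2bp1, RNA-binding proteins of the embryo, belong to the first kind. Lin28b had 44.1, 51.1, 39.96 and 40.4 CPM in hepatoblasts and 0, 0, 0 and 1 counts in mature hepatocytes, at least 232-fold lower. Igf2bp1 had 176, 248, 236 and 233 CPM against 0.137, 0.193, 0.233 and 0.186 CPM, a log2 fold change of -10.16 ± 0.2 (adjusted p = 3.79e-13). No mature library came near a hepatoblast library for either gene. Slc4a1, the anion exchanger of the red cell membrane, had 766, 148, 118 and 84.9 CPM in hepatoblasts, and Mpo, the peroxidase of neutrophil granules, 203, 23.7, 13 and 14 CPM, so that replicate 1 was far above the other hepatoblast libraries. Replicate 1 was also the highest for Kel (85.7, 18.5, 11.9 and 10.3 CPM), which encodes a blood group protein of the erythrocyte membrane. Without hepatoblast replicate 1 the log2 fold changes were -8.83 for Slc4a1 and -8.33 for Mpo, and both were still called.

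Many genes were close to absent on one side. At or under 3 counts in all 4 hepatoblast libraries and called higher were 321 genes, and at or under 3 counts in all 4 mature libraries and called lower were 1222 genes. Of these, 33 and 40 had at least 10 CPM in every library of the other group. The limit of 3 counts was 0.0955 CPM in hepatoblasts and 0.189 CPM in mature hepatocytes, so it was easier to meet in mature hepatocytes. The most abundant of the first kind after Elovl3 and Cyp4a12a was the pseudogene Serpina4-ps1 (131, 463, 363 and 31.8 CPM in mature hepatocytes, at least 2589-fold higher). Slc22a30, an organic anion transporter, was of this kind too (153, 179, 169.9 and 112 CPM). The most abundant of the second kind was Shbg, the carrier of sex steroids in plasma (57.2, 94.7, 98.9 and 92.9 CPM in hepatoblasts and 1, 1, 1 and 3 counts in mature hepatocytes, at least 454-fold lower). Hsd3b1, a steroid dehydrogenase of steroid-producing tissues, was also of this kind (30.2, 37.8, 51.6 and 55.4 CPM in hepatoblasts, at least 231-fold lower).

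Fetal growth and oncofetal genes fell almost without exception. Of 29 genes tested, 28 were called lower, none higher, and the median log2 fold change was -8.12. Afp, the serum albumin of the fetus, had 27579.9, 40063, 43220.5 and 46486 CPM in hepatoblasts and 41.1, 37.8, 58.1 and 32 CPM in mature hepatocytes, giving a log2 fold change of -9.86 ± 0.3 (adjusted p = 1.27e-11). Every adult library still held Afp counts. Dlk1, a surface protein of progenitors, had a log2 fold change of -9.71 ± 0.28. Hepatoblasts were collected by this protein, so selection and age cannot be told apart in that value. H19, an imprinted noncoding RNA, fell from 14919 ± 3446 to 33.6 ± 5.41 CPM, Meg3, another noncoding RNA, from 1549.5 ± 337 to 3.9 ± 1.83 CPM, and Grb10, an adaptor that restrains insulin signalling, from 1634 ± 314 to 11.8 ± 6.28 CPM. The growth factor Igf2, the cell surface proteoglycan Gpc3 and the let-7 targets Hmga2 and Trim71 were also called lower, with Igf2 going from 660.3 ± 146 to 0.972 ± 0.123 CPM. Exons of another annotated gene cover 64.5% of the exon bases of Igf2, so its level rests on the remaining bases in both groups. The exception was Cbx2, a Polycomb protein, with 7.45, 10.5, 10.9 and 12.7 CPM in hepatoblasts and 14.54, 9.18, 11.3 and 11.4 CPM in mature hepatocytes, which was not called.

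**Figure D2:**
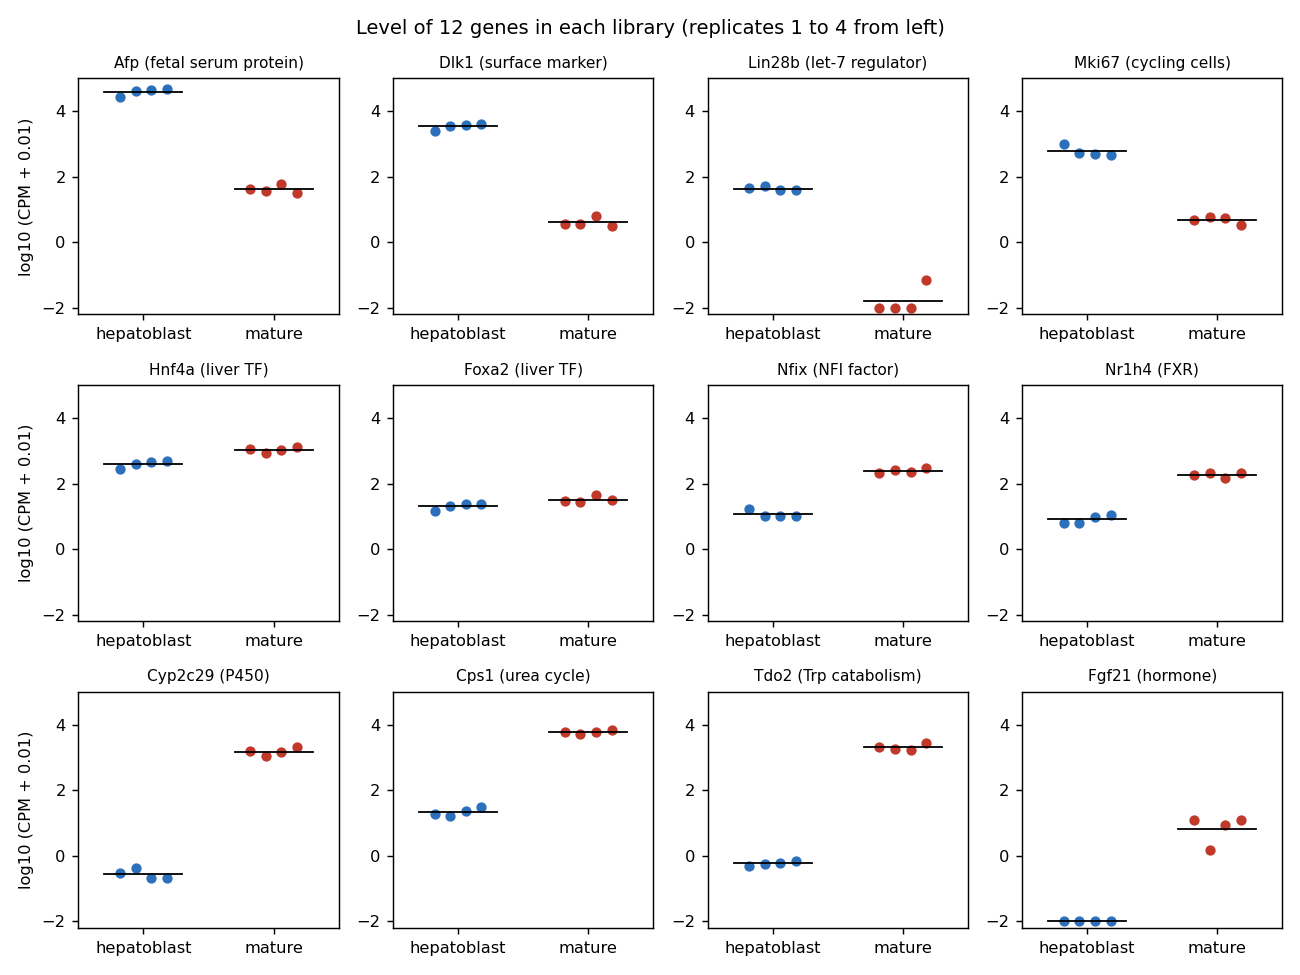
Levels of 12 genes in each library (y axis, log10 of CPM plus 0.01), hepatoblasts in blue and mature hepatocytes in red, replicates 1 to 4 from left to right in each group, with a bar at the mean. Afp, Dlk1, Lin28b and Mki67 lie higher in every hepatoblast library, Foxa2 lies near the same height in both groups, and Nfix, Nr1h4, Cyp2c29, Cps1, Tdo2 and Fgf21 lie higher in every mature library.

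Genes of cell division fell as a block. Of 45 mitotic genes, 44 were called lower (median log2 fold change -5.75), and of 47 replication genes, 43 were (median -3.13). Mki67, a marker of cycling cells, had 1029, 533, 484 and 474 CPM in hepatoblasts and 4.8, 5.84, 5.66 and 3.29 CPM in mature hepatocytes, giving a log2 fold change of -7.01 ± 0.41 (adjusted p = 4.44e-09). Bub1, a kinase of the spindle checkpoint, fell from 49.3 ± 3.45 to 0.188 ± 0.079 CPM, and Ccna2, the S phase and mitotic cyclin, from 118 ± 20.2 to 1.17 ± 0.196 CPM. Pcna, the polymerase clamp, had a log2 fold change of -2.47 ± 0.18 and Mcm7, a subunit of the replicative helicase, of -3.13 ± 0.17, against -6.45 ± 0.32 for the topoisomerase Top2a and -5.1 ± 0.29 for the kinase Cdk1. Hepatoblast replicate 1 was the highest library for Mki67, and without it the mitotic list still had 44 genes called lower. A pair of genes went the other way. Mcm10, a replication factor, rose from 47.2, 27.9, 24.6 and 24.8 CPM to 127, 274, 162 and 154 CPM (log2 fold change 2.53 ± 0.27, adjusted p = 1.76e-06). Pttg1, securin, rose from 12.9 ± 1.32 to 26.2 ± 2.17 CPM, a log2 fold change of 1.02 ± 0.12, which with library totals was 0.17 and not called. Raw counts of Pttg1 were 340, 459, 423 and 402 in hepatoblasts and 346, 418, 437 and 465 in mature hepatocytes, and without hepatoblast replicate 1 its log2 fold change was 0.95 and not called.

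A pair of short elements was counted in promoters of the mitotic genes and in promoters in general. In the 300 bases around the annotated start (250 before and 50 after, RefSeq, GRCm38.p6), TTTGAA, the core of the cell cycle homology region (CHR), stood on either strand in 71.4% of the mitotic promoters with a single RefSeq entry, and CCAAT in 74.3% (35 promoters). Over all tested genes with such an entry the shares were 12.2% and 39.0% (8853 promoters). The E2F-type element TTTCCCGC was in 15.6% of replication promoters and 2.11% of all tested promoters. TTTGAA is not particular to dividing cells, since 38.9% of the P450 promoters described below held it. A match of letters does not show binding. The upstream 250 bases of 3 mitotic genes are shown because both elements lie before the start in each, with CHR and CCAAT matches of either strand in capitals (ATTGG and TTCAAA are the same elements on the other strand). They read 5′ to 3′ along the gene's strand and end at the base before the start. Cdc20 activates the anaphase-promoting complex (chr4:118437344-118437593, minus strand), Cdk1 is the mitotic kinase (chr10:69352913-69353162, minus strand), and Ube2c is the ubiquitin-conjugating enzyme of the same complex (chr2:164769679-164769928, plus strand).
Cdc20: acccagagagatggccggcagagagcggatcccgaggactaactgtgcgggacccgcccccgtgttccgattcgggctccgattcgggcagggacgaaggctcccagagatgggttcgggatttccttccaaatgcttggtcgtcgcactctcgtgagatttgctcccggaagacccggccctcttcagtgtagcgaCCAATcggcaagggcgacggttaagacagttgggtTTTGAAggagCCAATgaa
Cdk1: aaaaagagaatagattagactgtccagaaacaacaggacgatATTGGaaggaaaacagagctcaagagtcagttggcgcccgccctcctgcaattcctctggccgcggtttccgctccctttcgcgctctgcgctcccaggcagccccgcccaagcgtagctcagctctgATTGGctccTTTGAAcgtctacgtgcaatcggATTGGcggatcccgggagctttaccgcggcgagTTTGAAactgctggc
Ube2c: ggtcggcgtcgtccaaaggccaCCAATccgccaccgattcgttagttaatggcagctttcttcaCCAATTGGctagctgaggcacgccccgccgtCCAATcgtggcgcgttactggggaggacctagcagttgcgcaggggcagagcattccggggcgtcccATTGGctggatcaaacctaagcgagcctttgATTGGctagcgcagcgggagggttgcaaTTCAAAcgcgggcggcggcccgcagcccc
In Cdc20 the CHR match began 18 bases before the start with CCAAT matches at 53 and 8, in Cdk1 the nearest CHR match began 15 bases before it, and in Ube2c 29 bases before it. Cdc20 fell from 98.7 ± 4.58 to 2.16 ± 0.668 CPM, Cdk1 from 86.6 ± 1.41 to 2.51 ± 0.7 CPM and Ube2c from 85.2 ± 5.17 to 1.08 ± 0.403 CPM.

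Chromatin, splicing and ribosome genes fell by smaller steps. Of 30 chromatin genes 21 were called lower and none higher (median -1.61). Uhrf1, which brings DNA methyltransferase to replicated DNA, fell from 170.4 ± 36.7 to 1.8 ± 0.496 CPM (log2 fold change -6.56 ± 0.36, adjusted p = 2.56e-09), Tet1, which oxidises methylcytosine, was at least 36.7-fold lower, and Hells, a remodeller needed for DNA methylation, fell from 63 ± 4.79 to 1.61 ± 0.511 CPM. Of 47 splicing genes 31 were called lower (median -1.19), with the largest decrease in Hnrnpa1 (359 ± 57.1 to 53.4 ± 7.78 CPM, log2 fold change -2.75 ± 0.14). Esrp2, an epithelial splicing regulator, rose with a log2 fold change of 1.12 ± 0.13, which was 0.28 with library totals and 0.99 without hepatoblast replicate 1, in both cases not called. Ribosomal protein genes moved as a tight group: 48 of 79 were called lower, none higher, with a median of -1.07, at the threshold itself, so that the count depends on the scaling (78 with library totals). Rps12 fell from 561 ± 59.2 to 158 ± 11.2 CPM, and Rps3, a component of the small subunit, from 872 ± 83.1 to 413 ± 29.6 CPM (log2 fold change -1.08 ± 0.096). Of 35 ribosome biogenesis genes 17 were called lower (31 with library totals), led by Nop58, a core protein of box C/D small nucleolar particles (-2.66 ± 0.099), and Npm1, the nucleolar chaperone nucleophosmin (-2.61 ± 0.14).

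Transcription factors of the liver set which genes a hepatocyte can express. Of 37 tested, 16 were called higher, 3 lower and 18 were not called (median 0.87), and with library totals 12 were called higher and 6 lower (median 0.036). Hnf4a, a nuclear receptor that drives hepatocyte genes, had 282, 406, 459.9 and 491 CPM in hepatoblasts and 1114, 862, 1069.6 and 1304 CPM in mature hepatocytes, giving a log2 fold change of 1.41 ± 0.18 (adjusted p = 7.71e-06), and with library totals it was 0.56 and not called. Foxa2, a pioneer factor of the endoderm, had 14.3, 19.9, 23.8 and 23.7 CPM and 28.3, 28, 44.7 and 31 CPM and was not called (0.69 ± 0.18, or -0.14 with library totals). Prox1 (168 to 200.4 CPM) had a change of 0.25 ± 0.2 and was not called either, and its sign turned with library totals (-0.6). Larger increases were in the nuclear factor I gene Nfix, from 16.3, 10.1, 10.2 and 10.3 CPM to 210.3, 261, 219 and 294 CPM (log2 fold change 4.39 ± 0.18, adjusted p = 1.52e-10), and in Zbtb20, a repressor of Afp transcription in the postnatal liver, from 19.3 ± 3 to 354 ± 49.3 CPM (4.2 ± 0.14). Cebpa, a regulator of metabolic genes, rose from 150.3 ± 34.2 to 797 ± 175 CPM, and Zhx2, another repressor of Afp, from 5.42 ± 1.15 to 34.6 ± 3.36 CPM. The largest increase was in Dbp, a clock output factor, from 0.838, 1.1, 1.1 and 1.09 CPM to 24.9, 122, 24.9 and 159 CPM, and hour of collection is not given in the sources used here. The genes that fell were Cux2 (18.2 ± 5.58 to 0.56 ± 0.23 CPM) and Hnf4g, at least 10.7-fold lower, with Gata6 (31.5 ± 7.07 to 8.47 ± 2.38 CPM).

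Nuclear receptors switch metabolic genes on and off in answer to hormones, lipids and bile acids. With TMM 19 of 30 were called higher and 3 lower (median 1.89), and with library totals 15 and 6 (median 1.04). Nr1i3, the drug sensor CAR, rose from 0.824 ± 0.182 to 50.2 ± 13.9 CPM (log2 fold change 5.92 ± 0.26), and exons of other genes cover 74.9% of its exon bases. Nr0b2, the corepressor SHP induced by bile acids, rose from 0.544 ± 0.17 to 63.4 ± 24.4 CPM, and Nr1h4, the bile acid receptor FXR, from 8.25 ± 2.34 to 185 ± 26.7 CPM. Ppara, the receptor for fatty acids and fibrates, rose from 34.2 ± 7.94 to 241 ± 71 CPM (2.82 ± 0.22) and Rxra, the partner of these receptors, from 99.5 ± 13.6 to 750.2 ± 110.3 CPM (2.91 ± 0.13). The receptors called lower were Vdr, for vitamin D (0.391 to 0.0473 CPM), Nr2f1 (1.69 to 0.351 CPM) and Nr6a1 (27.7 to 12.8 CPM).

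Cytochromes P450 of families 1 to 3, which oxidise drugs, steroids and fatty acids, rose in nearly all measured members (35 of 43 called higher, 2 lower, median log2 fold change 6.99). Cyp2c29 had 0.29, 0.418, 0.194 and 0.199 CPM in hepatoblasts and 1580.3, 1083, 1517 and 2029 CPM in mature hepatocytes, giving a log2 fold change of 12.42 ± 0.32 (adjusted p = 3.19e-12). Cyp2f2, an enzyme of periportal hepatocytes, rose from 0.349 ± 0.0462 to 1948 ± 95 CPM, Cyp2e1, which oxidises ethanol, from 2.82 ± 0.266 to 6504 ± 2033 CPM, and Cyp1a2, which oxidises caffeine, from 0.561 ± 0.168 to 1019 ± 168 CPM. No library of one group reached the range of the other for any of these. Cyp3a11 and Cyp3a16, adult and fetal forms of the steroid and drug hydroxylase, moved in opposite directions. Cyp3a16 is also among the genes read here as female-biased in the adult. The adults were male, so age and sex cannot be told apart in its change. Cyp3a11 rose from 4.32, 3.37, 6.12 and 7.89 CPM to 3815, 2811, 4380.4 and 4774 CPM, and Cyp3a16 fell from 13.9, 9.28, 18 and 28.8 CPM to 0.343, 0.128, 0.233 and 0.372 CPM. Cyp2b13, a female-biased form, was called lower, from 0.451, 0.418, 0.68 and 0.762 CPM to 0 counts in all 4 mature libraries, at least 3.05-fold, and Cyp1b1 was not called (1.51 to 0.751 CPM), though it was called lower with library totals (-1.81).

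The promoters of Cyp3a11 and Cyp3a16 are shown because the genes lie on chromosome 5 in a family that arose by duplication, moved in opposite directions, and yet both hold the HNF4-type element CAAAGTCCA, in capitals. Each is the 250 bases before the RefSeq start on the gene's strand (Cyp3a11 at chr5:145879855-145880104 and Cyp3a16 at chr5:145469724-145469973, both minus strand, GRCm38.p6).
Cyp3a11: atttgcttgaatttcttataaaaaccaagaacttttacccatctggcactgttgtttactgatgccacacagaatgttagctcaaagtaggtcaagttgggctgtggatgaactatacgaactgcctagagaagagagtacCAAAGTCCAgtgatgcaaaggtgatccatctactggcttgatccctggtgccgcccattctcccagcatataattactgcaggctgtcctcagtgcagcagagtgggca
Cyp3a16: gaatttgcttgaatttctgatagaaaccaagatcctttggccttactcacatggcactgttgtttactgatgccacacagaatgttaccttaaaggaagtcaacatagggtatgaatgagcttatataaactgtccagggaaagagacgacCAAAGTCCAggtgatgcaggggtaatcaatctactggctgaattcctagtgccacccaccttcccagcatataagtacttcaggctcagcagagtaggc
The element began 109 bases before the start of Cyp3a11 and 99 bases before that of Cyp3a16, and 200 of 239 aligned bases were identical (83.7%). Searched on both strands over 300 bases, it was in 19.4% of the 36 promoters of this P450 list and in 0.553% of the 8853 promoters of all tested genes, and TATAAA in 61.1% and 7.83%. Members of a duplicated family share promoter sequence by descent, so these shares do not count independent sites.

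Conjugating enzymes of phase II, which attach glucuronate, sulfate or glutathione, rose in 43 of 52 cases and fell in 4 (median 3.77). Ugt2a3 had 5, 4, 2 and 3 counts in hepatoblasts and 382, 352, 330.4 and 440.1 CPM in mature hepatocytes. Nnmt, which methylates nicotinamide, had 1, 2, 5 and 1 counts in hepatoblasts and 108, 166, 72.8 and 102 CPM in mature hepatocytes. Ugt1a1, the enzyme that conjugates bilirubin, was at least 1075-fold higher, and 82.7% of its exon bases are shared with other genes of its locus, so its level depends on the few reads that tell them apart. Against the direction of the list, Mgst2 had 12.5, 16.7, 17 and 18.8 CPM in hepatoblasts and 0, 0.128, 0.175 and 0.0621 CPM in mature hepatocytes, at least 85.8-fold lower, while its relative Mgst1, a microsomal glutathione transferase of the adult liver, rose from 147 ± 32.2 to 3514 ± 167 CPM. Gstp3, Gstm5 and Mgst3 were also called lower (-2.31, -1.48 and -1.38).

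Transporters of the sinusoidal and canalicular membranes rose in 23 of 30 cases (median 4.16). With library totals 18 were called higher and 5 lower (median 3.32). The organic anion uptake carrier Slco1a1 went from 0.193 ± 0.0832 to 660.5 ± 64.4 CPM, and Slc10a1, the sodium-dependent bile salt carrier, from 4.76 ± 2.26 to 812 ± 54.2 CPM. On the canalicular side Abcb11, the bile salt export pump, rose from 41.2, 44.8, 64.1 and 72.3 CPM to 1206, 589, 1029 and 878 CPM (log2 fold change 4.06 ± 0.26, adjusted p = 9.70e-09), and Abcc2, the conjugate pump, from 267 ± 60.2 to 954 ± 250.2 CPM (1.83 ± 0.21, but 0.98 and not called with library totals). Both pumps were thus well above 0 counts in hepatoblasts. The members called lower were Abcc4 (-1.99), Abcb1a (-1.85), Slc13a3 (-1.85), Slc16a1 (-1.35) and Atp7b (-1.02).

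**Figure D3:**
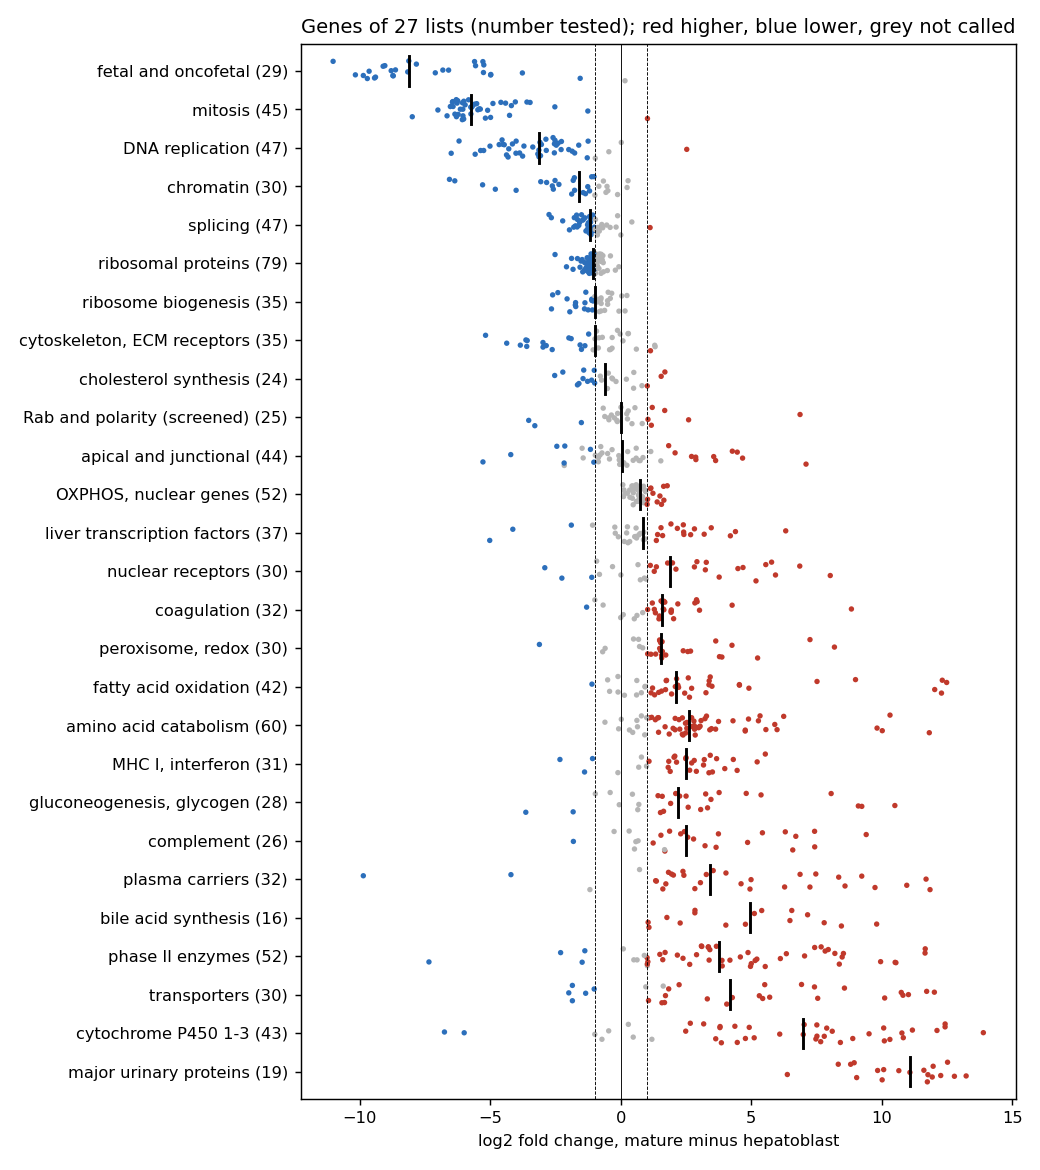
Log2 fold change of mature hepatocytes over hepatoblasts (x axis) for the genes of 27 lists (y axis, number tested in brackets), 1 point a gene, red called higher, blue called lower, grey not called, with a black bar at each list's median. Medians run from -8.12 for fetal and oncofetal genes to 11.07 for major urinary proteins. The nuclear OXPHOS list and the lists of apical and junctional genes and of screened Rab and polarity genes, with positive medians here, have negative medians with library totals.

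Urea cycle and nitrogen genes rose in 9 of 11 cases and none was called lower (median 2.07). With library totals 7 were called higher and 1 lower (median 1.23). Cps1, which fixes ammonia in the first step of the cycle, had 18.3, 16.7, 22.9 and 29.9 CPM in hepatoblasts and 5978, 5264, 6173 and 6850.2 CPM in mature hepatocytes (log2 fold change 8.11 ± 0.23, adjusted p = 6.22e-12). Arg1, which releases urea in the last step, rose from 21.1 ± 5.49 to 1562 ± 144 CPM (6.21 ± 0.22), whereas Otc, between them, rose from 142 ± 27.8 to 596 ± 38.3 CPM (2.07 ± 0.17). Glud1, glutamate dehydrogenase, had 1767, 2649, 2909 and 2846 CPM and 1328, 1039, 1423 and 1389 CPM and was not called (-0.97 ± 0.16), although it was called lower without hepatoblast replicate 1 (-1.12) and with library totals (-1.82).

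Amino acid catabolism rose in 50 of 60 genes with none called lower (median 2.62). With library totals 43 were called higher and 1 lower (median 1.79). Tdo2, which opens the ring of tryptophan, had 0.484, 0.567, 0.583 and 0.696 CPM in hepatoblasts and 2063, 1873, 1718 and 2804 CPM in mature hepatocytes, giving a log2 fold change of 11.81 ± 0.23 (adjusted p = 3.79e-13). Tat, the tyrosine aminotransferase that first appears around birth, rose from 2.03, 2.21, 2.62 and 2.45 CPM to 2228, 2428, 2225 and 2765 CPM (10.01 ± 0.22). Sds, serine dehydratase, was at 4, 2, 7 and 4 counts in hepatoblasts and 154, 223, 142 and 196 CPM in mature hepatocytes, and Aspg, an asparaginase, rose from 0.408 ± 0.0828 to 371 ± 36.6 CPM. Gldc, of glycine cleavage, was not called (346 to 227 CPM, change -0.61 ± 0.27), but was called lower with library totals (-1.46).

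Of 28 genes of glucose output and glycogen, 20 were called higher and 2 lower (median 2.18). With library totals 16 were called higher and 4 lower (median 1.33). G6pc, the phosphatase that releases glucose, had 0.677, 0.925, 1.13 and 0.696 CPM in hepatoblasts and 1639, 1497, 1019 and 840.0 CPM in mature hepatocytes (log2 fold change 10.5 ± 0.32, adjusted p = 1.02e-11). Fbp1 rose from 2.42 ± 0.644 to 1450.2 ± 136 CPM and Pck1, the cytosolic enzyme that makes phosphoenolpyruvate, from 16.7 ± 2.65 to 4430.2 ± 669 CPM. Pck2, the mitochondrial form of that enzyme, went the other way, from 50.02, 33.2, 43.4 and 34.7 CPM to 2.47, 3.27, 4.03 and 3.1 CPM (-3.64 ± 0.19, adjusted p = 1.88e-09). Gyg, the primer of glycogen, also fell (16.9 to 4.76 CPM).

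Isozyme pairs were read as ratios within each library, which do not depend on scaling between libraries. For each of 19 pairs the log2 ratio of counts per kilobase, adult form over fetal form, was taken in each of the 8 libraries. The pairs were chosen with earlier results of these data known, so the ratios are a description with no test. In 17 pairs every mature library lay above every hepatoblast library, and the median shift over the 19 pairs was 4.70. In 8 pairs the fetal form was the higher one in hepatoblasts and the adult form in mature hepatocytes. Igf1 over Igf2, the growth factors of the adult and the fetus, had ratios of -6.0, -7.87, -7.55 and -7.64 in hepatoblasts and 9.32, 8.89, 8.85 and 9.02 in mature hepatocytes. Cyp3a11 over Cyp3a16 shifted by 15.38, and Acacb over Acaca, the mitochondrial and cytosolic acetyl-CoA carboxylases, by 4.35. Pklr over Pkm, the liver and general pyruvate kinases, shifted by 3.68, and here the adult form was the higher one in both groups. The libraries overlapped for Pfkl over Pfkp (5.33, 6.3, 6.5 and 6.44 in hepatoblasts and 5.25, 5.98, 5.84 and 6.18 in mature hepatocytes) and for Dnmt3a over Dnmt3b. Which form is the adult one was set from general knowledge of these genes. Cyp3a16 is also female-biased in the adult, so age and sex cannot be told apart in the shift of its pair.

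**Figure D4:**
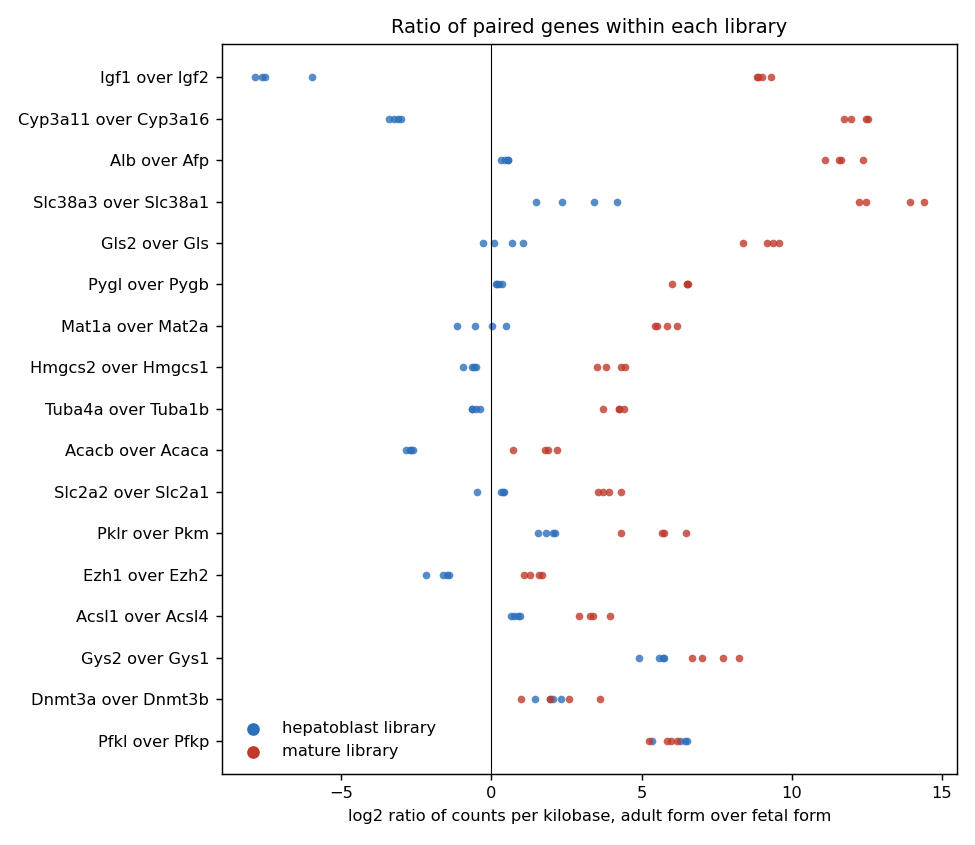
Log2 ratio of counts per kilobase within a library (x axis), adult form over fetal form, for 17 of the 19 gene pairs (y axis), with 4 hepatoblast libraries in blue and 4 mature libraries in red. The red points lie to the right of all blue points in 15 of the pairs drawn and overlap them in the lowest 2 pairs, Pfkl over Pfkp and Dnmt3a over Dnmt3b.

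Genes of bile acid synthesis were called higher in 16 of 16 cases (median 4.94). Cyp7b1, of the acidic pathway, had 0.451, 0.687, 0.583 and 0.696 CPM in hepatoblasts and 526, 825, 451 and 373 CPM in mature hepatocytes. Cyp7a1, the rate-limiting enzyme of the classical pathway, rose from 1.82 ± 0.768 to 162 ± 98.5 CPM (log2 fold change 6.48 ± 0.54, adjusted p = 1.46e-07), Cyp8b1, which makes cholic acid, from 2.42 ± 0.83 to 536 ± 157 CPM, and Baat, which conjugates bile acids, from 2.29 ± 0.786 to 326 ± 25.9 CPM.  Cholesterol synthesis, which supplies the precursor, went the other way in most of the genes called: 10 of 24 were lower and 3 higher (median -0.62), and with library totals 17 were lower and 0 higher. Lss, lanosterol synthase, fell from 273, 416, 439 and 484 CPM to 77.6, 86.7, 92.2 and 89.2 CPM (-2.22 ± 0.16, adjusted p = 2.58e-08). Sc5d (1.69) and Ebp (1.55), of the last steps, rose with TMM, and neither was called with library totals.

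Fatty acid oxidation rose in 31 of 42 genes (median 2.11), among them the omega-hydroxylases Cyp4a14 (0.125 ± 0.0893 to 552 ± 486 CPM) and Cyp4a10 (0.078 ± 0.0564 to 423 ± 248 CPM). With library totals 23 of the 42 were called higher and 1 lower (median 1.26). Cpt1a, which admits fatty acids to mitochondria, rose from 33.1, 30.5, 32.8 and 28.4 CPM to 697, 842, 523 and 847 CPM (4.54 ± 0.17, adjusted p = 9.29e-11). Pdk4, a kinase that spares glucose in fasting, was not called (17.2 to 12.8 CPM). Lipogenic genes rose in 20 of 29 cases, and with library totals 15 were called higher and 3 lower. Scd2 and Scd1, desaturases that make monounsaturated fatty acids, crossed over: Scd2 fell from 1065, 1541, 1649 and 1781 CPM to 9.05, 6.03, 7.18 and 4.72 CPM (log2 fold change -7.81 ± 0.24, adjusted p = 1.43e-11), and Scd1 rose from 203, 303, 329 and 349 CPM to 9387, 5995, 9925 and 9674 CPM (4.89 ± 0.24, adjusted p = 9.15e-10). Thrsp, a regulator of lipogenesis, rose from 0.205 ± 0.078 to 525 ± 246 CPM.

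Genes of plasma proteins mostly rose, from very different starting levels. Per kilobase of exon the most abundant protein-coding transcripts of hepatoblasts were Alb and Afp (16122 and 11679.7 CPM per kilobase), and in mature hepatocytes Alb, with 40644, was the highest of the protein-coding genes. Alb, the main plasma protein, rose from 27765, 35021, 41079 and 47162 CPM to 92078, 81003, 88684 and 118984 CPM, a log2 fold change of 1.33 ± 0.2 (adjusted p = 4.28e-05), which was 0.49 and not called with library totals. Of 32 carriers and inhibitors of the plasma 28 were called higher (median 3.41). Serpina3k, a protease inhibitor, rose from 3.65 ± 0.642 to 13432 ± 3039.9 CPM, Mug1, the murinoglobulin, from 1.39 ± 0.326 to 4630.1 ± 552 CPM, and Orm1, an acute phase glycoprotein, from 0.355 ± 0.113 to 719 ± 228 CPM. Against these, Serpina6, the corticosteroid carrier, fell from 3153, 4405, 5106 and 5082 CPM to 150.4, 225, 154 and 431 CPM (-4.21 ± 0.34, adjusted p = 1.06e-07). Of clotting and fibrinolysis genes 24 of 32 rose, by a smaller median (1.57), with 11 called higher with library totals. Hrg, histidine-rich glycoprotein, rose most (2 ± 0.377 to 912 ± 114 CPM), and F9, clotting factor IX, from 10.8 ± 2.64 to 207 ± 11.7 CPM, while Fgb, the fibrinogen beta chain, was already abundant (2086 ± 422 to 6320.0 ± 958 CPM, called higher with TMM but not with library totals, where its log2 fold change was 0.76). Itih2 was called lower (-1.31). Complement genes rose in 19 of 26 cases, with the terminal components C6 (0.722 ± 0.441 to 489 ± 119.9 CPM) and C9 (5.77 ± 1.54 to 988 ± 236 CPM) far from their starting level and C3 (3342 ± 720.0 to 12203 ± 822 CPM) closer to it. Colec10, a collectin, was called lower (-1.82).

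Afp and Gc, members of the albumin gene family on chromosome 5, share a short AT-rich element, searched on both strands, before the start and moved apart, Gc, the vitamin D carrier, rising from 519.8 ± 125 to 8473 ± 516 CPM. They are printed for that contrast as the 250 bases before the RefSeq start (Afp at chr5:90490464-90490713, plus strand, and Gc at chr5:89457899-89458148, minus strand, GRCm38.p6), with the match, which allows any base at 1 position, in capitals.
Afp: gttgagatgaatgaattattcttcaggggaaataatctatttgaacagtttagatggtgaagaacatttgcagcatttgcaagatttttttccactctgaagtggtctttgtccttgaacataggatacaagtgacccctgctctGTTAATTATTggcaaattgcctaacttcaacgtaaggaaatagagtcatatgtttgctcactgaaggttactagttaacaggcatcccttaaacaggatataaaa
Gc: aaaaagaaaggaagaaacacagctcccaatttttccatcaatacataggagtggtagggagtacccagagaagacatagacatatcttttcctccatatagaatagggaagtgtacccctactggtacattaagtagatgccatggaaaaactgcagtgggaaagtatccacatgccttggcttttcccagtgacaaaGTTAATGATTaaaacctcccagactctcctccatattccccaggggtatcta
The match began 105 bases before the start of Afp and 52 bases before that of Gc. On either strand it was in 3 of 21 promoters of the plasma carrier list and 3 of 15 of the complement list and in 0.395% of the 8853 promoters of all tested genes.

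Apolipoproteins and lipoprotein enzymes rose in 14 of 20 cases. Apoc3, an inhibitor of lipoprotein lipase, rose from 3.5 ± 0.622 to 2054 ± 254 CPM and Apoa5, an activator of it, from 2.96 ± 0.3 to 1518 ± 225 CPM. Apoe, the ligand of remnant receptors, rose from 3310.1 ± 665 to 28472 ± 5324 CPM. Lpl, the lipase itself, fell from 292, 389, 415 and 462 CPM to 11.7, 21.6, 33.8 and 7.82 CPM (log2 fold change -4.38 ± 0.37, adjusted p = 1.68e-07). Apom also fell (677 ± 135 to 279 ± 20.2 CPM).

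Major urinary proteins, pheromone carriers secreted by the liver into the blood and excreted in urine, were called higher in all 19 genes tested (median 11.07). Mup3 had 1.71, 2.42, 2.1 and 1.66 CPM in hepatoblasts and 11156, 10526, 8871 and 8117 CPM in mature hepatocytes (log2 fold change 12.25 ± 0.28, adjusted p = 1.66e-12), and Mup20, the male pheromone darcin, rose from 0.77 ± 0.122 to 3098 ± 384 CPM. The spread between adult libraries was wide for several members, with 221, 341, 134 and 120.4 CPM for Mup21. Of the 75-base windows of their transcripts, 85.3% for Mup7 and 69% for Mup17 also occur in other genes, so the levels of single members rest on the reads that are unique to them.

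The growth axis changed over. Igf1, the mediator of growth hormone, rose from 12.4, 4.84, 6.86 and 6.76 CPM to 945, 869, 911 and 862 CPM, and Igf1r, its receptor, fell from 48, 21.1, 21.9 and 16.6 CPM to 3.91, 2.05, 2.22 and 2.36 CPM (log2 fold changes 6.86 ± 0.37 and -3.36 ± 0.43). Ghr, the growth hormone receptor, rose from 73.8 ± 14.4 to 724 ± 61.9 CPM, and Igf2r, which clears Igf2, fell from 1377 ± 280.0 to 118 ± 17 CPM. Among growth factor receptors Egfr rose from 3.84, 4.21, 5.6 and 5.1 CPM to 1616, 1441, 921 and 690.5 CPM (7.96 ± 0.3, adjusted p = 7.28e-11) and its relative Erbb2 fell from 17.5 ± 3.98 to 1.75 ± 0.513 CPM (-3.32 ± 0.23). Fgf21, a hormone of fasting, had 0, 0, 0 and 0 counts in hepatoblasts and 12.1, 1.48, 8.46 and 12.2 CPM in mature hepatocytes. The insulin receptor Insr (159 to 255 CPM) and the hepatocyte growth factor receptor Met (97.4 to 117 CPM) were not called (0.68 ± 0.12 and 0.27 ± 0.15), and they turned to -0.16 and -0.58 with library totals.

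Genes that differ between the sexes in adult mouse liver were read by list, and the adults here were male. Of 23 male-biased genes 21 were called higher and 1 lower (median 7.51). Of 17 female-biased genes 5 were called higher and 5 lower (median -0.32), where 20.8% and 25.4% of all genes tested were. Hao2, a hydroxyacid oxidase that is female-biased in the adult, had 9.96, 9.37, 14.2 and 17.9 CPM in hepatoblasts and 0.0686, 0.0642, 0.0584 and 0.124 CPM in mature hepatocytes, and Cux2, a female-specific transcription factor in the adult, fell as given above. Prlr, the prolactin receptor, went against them, from 0.175 ± 0.0597 to 98.1 ± 22.6 CPM. Both lists include genes also counted under P450 or Mup. On the sex chromosomes, Xist, the RNA that silences an X chromosome in female cells, had 287, 567, 329 and 319 CPM in hepatoblasts and 4.73, 3.4, 4.32 and 4.04 CPM in mature hepatocytes (log2 fold change -6.51 ± 0.32). The Y-linked genes Eif2s3y (17.4, 6.45, 10.8 and 18.5 CPM and 55.3, 63.2, 41.6 and 51.9 CPM) and Ddx3y (34.5, 11.3, 24.7 and 36.5 CPM and 85.8, 71.6, 86 and 97 CPM) were present in every library and called higher in mature hepatocytes (2.0 and 1.67), and with library totals they were at 1.14 and 0.81, the latter not called. All 4 hepatoblast libraries thus held both Xist and Y-linked transcripts. On the X chromosome 39.3% of 461 protein-coding genes were called lower and 13.7% higher, against 25.6% and 20.7% of 13701 autosomal ones. Among genes with a mean of at least 10 CPM the share called lower was 30.0% of 240 on the X chromosome and 16.5% of 8324 on the autosomes. Sex and age cannot be told apart in these values.

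Genes that mark either zone of the adult lobule rose more often than they fell. Of 27 periportal genes 23 were called higher and 2 lower (median 4.83), and of 29 pericentral genes 15 and 4 (median 1.27), where library totals gave 12 and 7. Hsd17b6, a steroid dehydrogenase, rose from 0.103 ± 0.0478 to 226 ± 101 CPM and Etnppl, a phospholyase, from 0.129 ± 0.0618 to 317 ± 45.1 CPM on the periportal side. Glul, glutamine synthetase, the enzyme of the cells that ring the central vein, had 381, 516, 502 and 493 CPM in hepatoblasts and 579.9, 1148, 847 and 963 CPM in mature hepatocytes and was not called (0.9 ± 0.18). The Wnt targets Axin2 (7.16 to 10.4 CPM) and Lgr5 (17.5 to 9.25 CPM) were not called either, with Lgr5 at -0.92 ± 0.3, but called lower without hepatoblast replicate 1 (-1.11) and with library totals (-1.75), and Axin2 at 0.54 ± 0.27, or -0.3 with library totals. Slc1a4 (66.3 ± 14 to 5.38 ± 1.77 CPM), Rhbg (12.7 ± 2.92 to 1.87 ± 0.763 CPM) and Tcf7 (15.2 ± 3.66 to 5.16 ± 1.12 CPM) were called lower. A bulk library averages over the lobule, so these values give levels and not positions.

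Apical and junctional genes were called in both directions. Of 44 tested, 11 were called higher, 7 lower and 26 were not called (median 0.037). Of all genes tested 20.8% were called higher, 25.4% lower and 53.8% were not called. With library totals 11 were called higher and 19 lower (median -0.81). The tight junction genes divided: Cldn3 rose from 1.03, 0.717, 0.615 and 0.994 CPM to 129, 91.1, 117 and 123 CPM (log2 fold change 7.09 ± 0.22, adjusted p = 1.06e-11), Cldn2, the pore-forming claudin, from 1.1 ± 0.278 to 128 ± 11.9 CPM, and Tjp3 from 1.6 ± 0.331 to 35.3 ± 17 CPM, whereas Cldn7 was called lower (2.79 to 0.507 CPM). Of the actin-binding proteins of the apical surface, Ezr, ezrin, fell from 119, 110.2, 109.9 and 96 CPM to 7.13, 6.1, 5.6 and 4.66 CPM (-4.21 ± 0.24, adjusted p = 3.40e-09). Vil1, villin, fell from 6.37 ± 1.34 to 0.164 ± 0.135 CPM (-5.28 ± 0.54). Rdx, radixin, the relative of ezrin in the bile canaliculus, had 259, 292, 303 and 308 CPM and 341, 303, 309 and 413 CPM. It was not called (change 0.23 ± 0.11, or -0.62 with library totals). Ceacam1, a canalicular adhesion molecule, rose from 7.71 ± 2.08 to 195 ± 25.7 CPM, and Cdh1, E-cadherin, fell from 238 ± 47.8 to 106 ± 38.5 CPM (-1.16 ± 0.21). The gap junction genes Gjb1 (179 ± 43.1 to 1081 ± 119 CPM) and Gjb2 (40.04 ± 8.44 to 496 ± 95.5 CPM), the connexins of hepatocytes, were both called higher. Of the 25 Rab and polarity genes that the study screened by siRNA, 6 were called higher, 3 lower and 16 were not called (median 0.0053). Again 20.8% of all genes tested were called higher and 25.4% lower. With library totals 2 of the 25 were called higher and 10 lower (median -0.82). Rab27b (1.69 to 0.142 CPM), Rab8b (22 ± 18.9 to 2.25 ± 0.715 CPM) and Rab27a (4.56 to 1.6 CPM), of vesicle traffic to the surface, were the ones called lower, and without hepatoblast replicate 1, the highest library for Rab8b and Rab27a, their log2 fold changes were -3.16, -2.5 and -1.06. Rab35, a Rab of endosomes and the cell surface, had 42.4, 27.6, 30.3 and 29 CPM in hepatoblasts and 21.7, 24.8, 23.1 and 24.8 CPM in mature hepatocytes and was not called (-0.46 ± 0.13), whereas with library totals it was called lower (-1.32). Cytoskeletal genes were called lower in 16 of 35 cases (26 with library totals), with Tagln2 (159 ± 12.4 to 7.65 ± 1.65 CPM), Stmn1, which destabilises microtubules (28.7 ± 4.27 to 1.99 ± 0.472 CPM), and Tuba1a (17.5 ± 4.22 to 1.4 ± 0.167 CPM) among the largest, and Tuba4a the only gene called higher (1.14, which was 0.26 and not called with library totals).

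Of 52 nuclear genes of oxidative phosphorylation 11 were called higher and none lower (median 0.73). Over all genes tested 20.8% were called higher and 25.4% lower. With library totals none of the 52 was called in either direction and the median was -0.12. Ndufa1, a subunit of complex I, had the largest change, from 28.5 ± 1.65 to 97.6 ± 5.94 CPM (1.78 ± 0.096). The 7 mitochondrially encoded genes tested were called higher with TMM (median 1.4) and 1 of them with library totals. Copies of mitochondrial sequence in the nuclear genome share 40.00% of the windows of mt-Co1 and 61.7% of those of mt-Nd4. Of 30 peroxisomal and redox genes 23 were called higher (median 1.55), and with library totals 10 were called higher and 3 lower (median 0.69). Hao1, glycolate oxidase, rose from 1.59 ± 0.648 to 459.9 ± 68.4 CPM, Cat, catalase, from 188, 203, 217 and 239.8 CPM to 4195, 3698, 3636 and 4687 CPM (4.26 ± 0.13, adjusted p = 9.46e-12), and Pex11a, which multiplies peroxisomes, from 3.58 ± 0.616 to 135 ± 29.9 CPM. Hmox1, which degrades haem, fell from 121 ± 22.7 to 13.9 ± 3.94 CPM (-3.12 ± 0.24). Chaperones and translocon genes of the endoplasmic reticulum were mostly not called (26 of 36), with Hspa5, its main chaperone, at 1691 to 1407 CPM (-0.27 ± 0.14), and with library totals 17 were called lower and 2 higher.

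Stress, immune and clock genes also differed. Metallothioneins, which bind zinc and copper, fell: Mt2 from 239, 299.7, 300.2 and 267 CPM to 5.14, 10.1, 1.93 and 0.993 CPM (log2 fold change -5.94 ± 0.53, adjusted p = 2.93e-07) and Mt1 from 1505 ± 199.8 to 86.5 ± 57.9 CPM (-4.12 ± 0.44). Exons of another gene cover 73.5% of the exon bases of Mt2. The acute phase genes Saa1 (0.258, 0.269, 0.356 and 0.365 CPM and 60.3, 789, 82.3 and 23.3 CPM) and Saa2 (0.289 ± 0.157 to 107 ± 177 CPM) rose, with a wide spread between adult libraries. Immediate early genes, which respond within minutes to cell isolation, were divided with TMM: Fos (384 ± 79.5 to 181 ± 51.4 CPM) and Atf3 (114 ± 29.5 to 46.5 ± 20.9 CPM) were called lower, Dusp1 (63.5 ± 14.1 to 278 ± 80.1 CPM) and Nr4a1 (19.4 ± 6.19 to 183 ± 98.2 CPM) higher, and Jun (717 ± 122 to 537 ± 159 CPM) and Egr1 (603 ± 163 to 366 ± 96.1 CPM) were not called. With library totals Jun (-1.27) and Egr1 (-1.56) were called lower. Of the 31 immediate early and stress genes 9 were called higher and 12 lower, and with library totals 7 and 18. The shares over all genes tested were 20.8% higher and 25.4% lower with TMM. Genes of MHC class I and of the interferon response were called higher in 24 of 31 cases (median 2.5). B2m, the light chain of class I molecules, rose from 189, 224, 233 and 274 CPM to 1341, 1492, 1105 and 1217 CPM (2.49 ± 0.14, adjusted p = 2.22e-09), Nlrc5, the activator of class I genes, from 0.771 ± 0.0896 to 36 ± 15.1 CPM, and Irf7 from 2.78 ± 1.45 to 60.9 ± 15.5 CPM, while Irf1 fell from 139 ± 27 to 27.7 ± 4.3 CPM. Of 19 clock genes 11 were called higher, and 8 with library totals. The groups did not overlap for 9 of the 19, against 67.8% of all genes tested. Among those called were Bhlhe41 (0.104 ± 0.062 to 10.6 ± 6.61 CPM) and Nr1d1, the repressor REV-ERB alpha (2.41 ± 0.301 to 113 ± 69 CPM), next to Dbp. Arntl, the core activator BMAL1, was not called (9.26, 11.6, 16.2 and 16.1 CPM and 23.8, 1.48, 22.8 and 1.18 CPM). The hour of collection is not given in the sources used here.

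Markers of other cell types that either preparation could carry moved with the comparison, and their part in the results was not tested. Of 14 erythroid markers 13 were called lower, with 13 also without hepatoblast replicate 1, and their summed level in the mature libraries was 185, 159, 149 and 135 CPM, most of it from Alas2, an enzyme of haem synthesis (34.4 ± 34 to 151 ± 19.8 CPM). Alas2 was called higher with a log2 fold change of 2.13 ± 0.47, which was 3.11 without hepatoblast replicate 1 and 1.22, not called, with library totals. Gata1 and Epb42, of red cell precursors, were at 0 counts in all mature libraries. Of 12 mesenchymal markers 9 were called lower and 2 higher, with sums of 1284, 1729, 2322 and 1869 CPM in hepatoblasts and 78.2, 79.2, 115 and 100.3 CPM in mature hepatocytes. Reln (589, 958, 973 and 937 CPM and 16.9, 15.6, 25.8 and 28.4 CPM) and Col1a1 (221, 246, 426 and 306 CPM and 2.19, 4.36, 3.5 and 1.92 CPM) made up much of it, and here replicate 1 was not the highest hepatoblast library. All 7 megakaryocyte markers were called lower, among them Ppbp (15.7, 7.25, 8.06 and 2.55 CPM in hepatoblasts). Macrophage markers were mostly not called (10 of 13). Their median was 0.14, or -0.77 with library totals and 0.94 without hepatoblast replicate 1. Their sums were 421, 98.8, 122 and 118 CPM in hepatoblasts and 284, 165, 312 and 162 CPM in mature hepatocytes. Clec4f and Vsig4, of adult Kupffer cells, were called higher (2.42 to 50.1 and 0.0567 to 9.06 CPM). Of 11 endothelial markers 6 were called higher, and 10 without hepatoblast replicate 1, led by the sinusoidal gene Clec4g (0.459 ± 0.284 to 25.4 ± 3.73 CPM). With library totals 4 endothelial markers were called higher and 1 lower (median 0.54). Bile duct markers were low in both groups (median 0.46, which was -0.38 with library totals), with sums of 27.2, 31.4, 36 and 34.7 CPM and 66.4, 59.1, 52.7 and 37.7 CPM, and Krt19, their defining keratin, was not called (1.75 to 3.94 CPM).

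Called genes lay next to each other along the chromosomes in places. Ordered by position, 6.18% of 14152 adjacent pairs of protein-coding genes were both called higher, where the product of the shares is 4.20%, and 7.87% were both called lower, where it is 6.77%. Runs of at least 6 adjacent genes with the same call numbered 19 for higher and 13 for lower. The longest run was the Mup cluster on chromosome 4 (chr4:59956804-62150863, 19 genes higher, GRCm38). A run of 10 on chromosome 5 held the glucuronosyltransferase genes of the Ugt2b family and neighbouring sulfotransferases (chr5:86916638-88527891), and one of 8 on chromosome 17 held class II MHC genes with Psmb8, Psmb9, Tap1 and Tap2, of antigen processing (chr17:34153072-34316674). Of the runs that fell, the longest were 14 genes on the X chromosome, the Bex and Tceal families among them (chrX:135742733-136743690, median log2 fold change -6.55) and 11 genes on chromosome 13, of which 9 encode histones (chr13:21735064-22043676, median -3.26). Replication-dependent histone mRNAs lack a poly(A) tail and the libraries were poly(A)-selected, so their level here is not that of all histone mRNA. Many runs hold families that arose by duplication, so neighbours are not independent genes.

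Promoters of the genes that rose most were rarely CpG-rich. Of 8853 protein-coding genes with a single RefSeq promoter, 69.1% had a CpG-rich one, with an observed to expected CpG ratio of at least 0.6 over 300 bases. The share was 75.9% of genes not called, 65.8% of genes called lower and 54.3% of genes called higher. Among genes called higher by more than 5 on the log2 scale it was 13.4% (32 of 238), against 51.6% (236 of 457) of genes called lower by as much. Genes with changes over 7 included 8 CpG-rich promoters among 136.

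**Figure D5:**
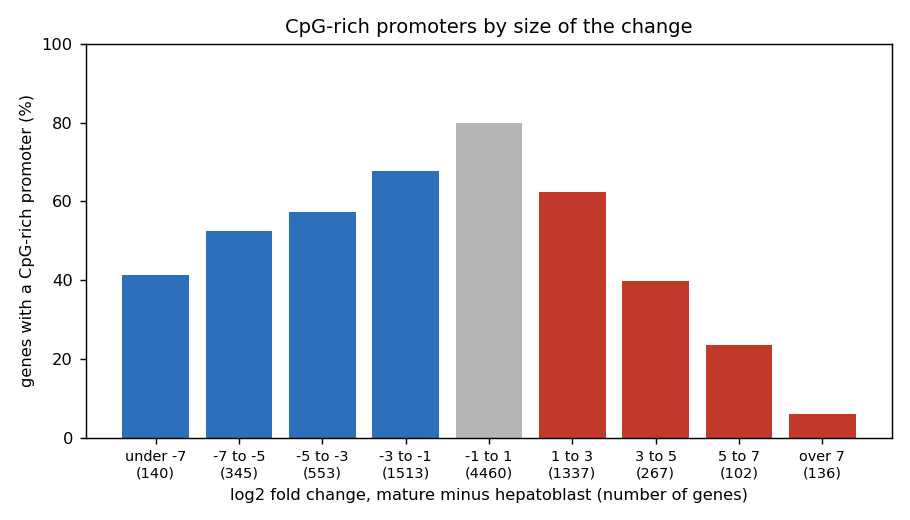
Share of genes with a CpG-rich promoter (y axis, percent, from 0) for 8853 genes in 9 bins of log2 fold change of mature hepatocytes over hepatoblasts (x axis, number of genes in brackets). The share is 79.8% between -1 and 1, falls to 41.4% below -7 and to 5.88% above 7.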

How the data were processed

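Poly(A) RNA of 4 hepatoblast and 4 mature hepatocyte libraries was sequenced as 75-base single reads, and the authors aligned them with STAR 2.5.2b to GRCm38 and deposited raw counts per Ensembl 92 gene. The submitters' processing notes also name FastQC 0.11.2, Picard 2.10.2 and DESeq2 1.22.2. Of 299 genes whose exons are covered by exons of the opposite strand only, 279 had 0 counts, so overlapping antisense genes cannot be told apart here, and 284 genes (1.66%) had over 50% of their exon bases in another gene. Library totals of 20043218 to 25216977 counts set the precision, and a group with 3 counts or fewer in every library gives only a bound for a fold change.

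Genes with more than 10 counts in any of the 8 libraries were tested with edgeR 4.0.16 (R 4.3.3, limma 3.58.1), TMM factors over 12 libraries and the quasi-likelihood test, and genes were called where the p adjusted by Benjamini-Hochberg was below 0.01 and the log2 fold change beyond 1. Where a p carries no other name it is this adjusted p. DESeq2 1.42.0, other scalings, filters, thresholds and left-out libraries were alternatives. Replicates are called biological by the study. Deviations of libraries with the same replicate number correlated at -0.036 to 0.095 (4 pairs), so the numbers were not taken to pair libraries. Gene length in counts per kilobase is the summed exon length. Named genes are the 15 largest changes each way with a mean of at least 10 CPM, the most abundant genes, the leading genes of 49 lists, and the most abundant genes at or under 3 counts in the other group. The genes, lists and isozyme pairs were chosen with earlier results of these data known, and other list members named were chosen after their values were seen. The fit was tested on simulated data. Promoters are RefSeq sequences, and genes that were not matched by symbol were not analysed here. Some genes that the naming rule picks, and 2 isozyme pairs, are not reported here by name, and counts over lists and pairs include them.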

Additional observations from a re-analysis of the deposited data

Results flagged for a closer look

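Within each group of 4 libraries, a library that lay apart from the others by Dixon's ratio at the 95% level was looked for in 435 sets of values printed here, and 46 were found. By chance about 1 set in 20 is found. Of the 33 sets found in hepatoblasts, 28 had replicate 1 as the separate library. In hepatoblast replicate 1 the following genes lay below the other 3 hepatoblast libraries, in CPM with the range of the others: Abcc2 (177, others 292 to 304), Dbp (0.838, others 1.09 to 1.1), Erbb2 (11.5, others 19.3 to 19.6), Grb10 (1162, others 1785 to 1803), Igf2r (957, others 1503 to 1524), Nr6a1 (17.5, others 29.8 to 31.9), Pttg1 (11, others 13.3 to 13.7), Reln (589, others 937 to 973), Rhbg (8.32, others 13.9 to 14.51) and Shbg (57.2, others 92.9 to 98.9). In the same library these genes lay above the others: Alas2 (85.3, others 16 to 19.7), Igf1r (48, others 16.6 to 21.9), Irf7 (4.93, others 1.88 to 2.29), Kel (85.7, others 10.3 to 18.5), Mcm10 (47.2, others 24.6 to 27.9), Mgst3 (70.6, others 35.5 to 37.9), Mki67 (1029, others 474 to 533), Mpo (203, others 13 to 23.7), Nfix (16.3, others 10.1 to 10.3), Rab27a (8.26, others 3.15 to 3.43), Rab8b (50.2, others 10.8 to 16), Slc4a1 (766, others 84.9 to 148), Stmn1 (35.1, others 26.5 to 26.6) and Tuba4a (119, others 91.5 to 93.6). Its summed markers were also above, for erythroid cells (3366, others 408 to 690.0), lymphoid and myeloid cells (441, others 33.6 to 52.7) and macrophages (421, others 98.8 to 122) in CPM. Replicate 2 of hepatoblasts stood apart for Cyp2f2 (0.418, others 0.322 to 0.331) and Xist (567, others 287 to 329), in CPM. Replicate 4 of hepatoblasts stood apart for Nr1i3 (1.09, others 0.712 to 0.774), Zbtb20 (23.8, others 17.2 to 18.2) and mt-Co1 (4935, others 4317 to 4342), in CPM. Replicate 1 of mature hepatocytes stood apart for Igf1r (3.91, others 2.05 to 2.36), Krt19 (9.33, others 2.05 to 2.28) and Rab27a (1.78, others 1.52 to 1.55), in CPM. Replicate 2 of mature hepatocytes stood apart for Fos (105, others 197 to 213), Saa1 (789, others 23.3 to 82.3), Saa2 (373, others 9.19 to 24.3), Scd1 (5995, others 9387 to 9925), Stmn1 (2.7, others 1.71 to 1.81) and Tuba4a (127, others 243 to 256), in CPM. Replicate 3 of mature hepatocytes stood apart for Dlk1 (6.42, others 3.17 to 3.63), in CPM. Replicate 4 of mature hepatocytes stood apart for Abcc2 (1326, others 783 to 859) and Cyp1a2 (1269, others 909 to 959.6), in CPM. The log2 ratio of Slc2a2 over Slc2a1 was lowest in hepatoblast replicate 1 (-0.47, others 0.31 to 0.4). The log2 ratio of Pygl over Pygb was lowest in mature hepatocyte replicate 3 (6.02, others 6.5 to 6.53).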

How the results depend on the processing

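The number of genes called and their split between higher and lower depended on scaling and on the call rule, and in no alternative was a gene called in the opposite direction. With library totals 1996 genes were called higher and 7806 lower, and with library totals that leave out the 50 most abundant genes 2270 and 6926. With the fold change threshold inside the DESeq2 test 4917 genes were called (2326 higher, 2591 lower), with at least 10 counts required in every library 4490 (2330 and 2160), and with an adjusted p under 0.05 and no fold change threshold 12697 (5879 and 6818). The DESeq2 Wald test called 3559 and 4380, and edgeR's glmTreat 2643 and 3082. Leaving out each library in turn gave 7571 to 7804 genes called. The fit with the replicate number as a block, which the data did not show to be a pairing, called 7929 genes (3585 higher, 4344 lower). The count of isozyme pairs was 17 with every alternative other than the difference of fitted changes, which gave 18.

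Among printed genes, none that was called changed sign. With library totals the log2 fold changes of genes not called turned to -0.30 for Axin2, -0.68 for Cbx2, -0.14 for Foxa2, -0.16 for Insr, -0.58 for Met, -0.60 for Prox1 and -0.62 for Rdx. Without the 50 most abundant genes in the totals they were -0.12 for Axin2, -0.504 for Cbx2, -0.402 for Met, -0.42 for Prox1 and -0.44 for Rdx. Arntl, also not called, ranged from -0.64 to 0.26 as each library was left out, and was above 0 without mature replicate 2 or 4. Calls of printed genes that were lost when 1 library was left out were those of Atp7b (-0.97 without hepatoblast replicate 4), Esrp2 (0.9904 without hepatoblast replicate 1), Fos (-0.9903 without hepatoblast replicate 3, -0.9007 without mature replicate 2) and Pttg1 (0.95 without hepatoblast replicate 1, 0.96 without mature replicate 4). Calls gained were those of Glul (1.05 without mature replicate 1), Glud1 (-1.12 without hepatoblast replicate 1, -1.03 and -1.02 without mature replicates 3 and 4) and Lgr5 (-1.11 without hepatoblast replicate 1). The cause was not tested. Genes under 1 CPM rest on few counts, and 4 libraries a group limit what small differences could be seen.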
